A study of Caenorhabditis elegans with 20 samples.

Results

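The comparison described here is the change with ivermectin (IVM) exposure at 1 µg/ml minus the change at 100 ng/ml, gene by gene, in *Caenorhabditis elegans*. It used all 20 arrays of the series, 5 with IVM and 5 with DMSO alone at each of 2 doses, and each change was taken within a biological replicate, as the IVM array minus the DMSO array of the same number. A positive difference between doses therefore means a larger rise, or a smaller fall, at 1 µg/ml. All values are also given over 18 arrays, without the IVM and DMSO arrays of replicate 4 at 100 ng/ml, since that pair ran against the other 4.

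All groups were whole nematodes of strain DA1316, which carries *avr-14(ad1302)*, *avr-15* and *glc-1(pk54)*, so that the controls have the same mutations as the exposed worms. The *avr-15* allele is written ad1250 in the labels and vu227 in the methods. Worms were grown from L1 larvae for 53 hr at 20 °C on NGM plates seeded with OP50 bacteria, and then moved for 4 hr to plates with IVM or with the solvent. The DMSO share was 0.001% v/v with 100 ng/ml and 0.01% v/v with 1 µg/ml, and the doses were run as separate experiments, so dose, solvent and experiment cannot be told apart in the difference between doses. The description text of all 20 samples states another share of DMSO, and that of 7 names ABZ; the groups here follow the titles, exposure labels and methods.

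IVM opens glutamate-gated chloride channels, which silences pharyngeal and body wall muscle and so stops feeding and movement. DA1316 lacks several of these channel subunits and tolerates the drug. In *C. elegans* the loss of food is known to switch lipid metabolism from synthesis, with stearoyl-CoA desaturases such as FAT-6 and FAT-7, to lysosomal lipolysis and oxidation, and to activate the transcription factor DAF-16 and its targets. The caenacins and related antimicrobial peptides are made in the epidermis and are known for their induction by fungal infection and wounding.

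Array medians of the deposited log2 values lay between 5.58 and 5.71, and values ran from 2.74 to 14.2. Of 20563 probesets, 434 were called higher and 281 lower at 1 µg/ml (3.48% called) in limma fits blocked by replicate, at a Benjamini-Hochberg adjusted p under 0.05. At 100 ng/ml none was called over 5 pairs (0.0%, with 895 or 4.35% under an unadjusted p of 0.05), and 201 were called higher and 112 lower over the 4 pairs without replicate 4 (1.52%). Between the DMSO arrays of the 2 experiments no probeset was called by limma, though 2249 (10.9%) had an unadjusted p under 0.05. The median of the 1 µg/ml controls minus the 100 ng/ml controls was -0.64 over 12 body wall muscle genes, -0.58 over 20 oocyte and eggshell genes, -0.51 over 16 germline genes, -0.49 over 66 sperm genes and -0.82 over 5 vitellogenin genes, against 0.03 over 16649 genes. In whole worms, fewer cells of a type and less RNA per cell cannot be told apart.

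Few probesets were called for a difference between doses. Over 20 arrays, 1 of 20563 probesets was called (0.00486%), and over 18 arrays the same 1 (0.00486%); it measures *cnc-4*, a caenacin, one of the antimicrobial peptides of the epidermis. An unadjusted p under 0.05 was found for 1397 probesets (6.79%; 659 or 3.2% with a higher and 738 or 3.59% with a lower change at 1 µg/ml) over 20 arrays and for 1288 (6.26%; 557 or 2.71% and 731 or 3.55%) over 18. The median standard error of the difference was 0.15 on the log2 scale over 18 arrays, so the 95% interval of a typical probeset was 0.64 wide. Data were simulated for 18 arrays with independent noise of each probeset's own spread. In them, 82% of probesets with a difference of 1 on the log2 scale were called and 26% of those with 0.5. Differences of 0.5 were thus mostly not called in the simulated data. The simulated set held 50 probesets each with differences of 0.5, 1, 2 and 4. So many true differences make the adjusted p limit easier to pass, while only 1 probeset was called in the arrays. The shares may therefore be too high for these arrays. The changed probesets were also drawn at random, so the shares need not hold for genes that spread more between pairs. In the arrays themselves, *F57G8.7* had a difference of 1.80 over 18 arrays and was not called (limma adjusted p = 0.721).

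*cnc-4* was higher with 1 µg/ml IVM and near its control at 100 ng/ml. In the 5 control arrays of the 1 µg/ml experiment its log2 level was 7.09, 5.84, 6.71, 6.63 and 6.71 (replicates 1 to 5), and in the matched IVM arrays 8.04, 7.31, 8.32, 8.43 and 8.23. In the 100 ng/ml experiment the controls had 7.08, 7.15, 6.72, 5.99 and 7.95 and the IVM arrays 7.13, 7.55, 6.59, 5.85 and 7.87. Every IVM array at 1 µg/ml stood above its own control by at least 0.95, while no pair at 100 ng/ml moved by more than 0.40, so the changes at the 2 doses did not overlap. The rise at 1 µg/ml was 1.47 (log2) and the mean at 100 ng/ml 0.02 over 5 pairs, and the difference was 1.45 (SE 0.16, limma adjusted p = 0.0119, n = 5 pairs against 5). Without replicate 4 at 100 ng/ml the difference was 1.41 (95% interval 1.03 to 1.79, adjusted p = 0.0456). Leaving out any one pair kept the difference over 20 arrays between 1.37 and 1.58, but the call was lost without replicate 1, 3 or 5 at 100 ng/ml (adjusted p = 0.0671, 0.0889 and 0.0589) or replicate 5 at 1 µg/ml (0.0773). Over 18 arrays the call was lost without any of the 4 remaining pairs at 100 ng/ml or without replicate 3, 4 or 5 at 1 µg/ml, with adjusted p from 0.0542 to 0.443. It was also lost with the replicate as a random block (adjusted p = 0.0775 over 20 arrays and 0.0581 over 18), with a block across experiments (0.303 and 0.304), without any replicate block (1 in both) and, over 18 arrays, with array weights (0.0519).

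**Figure D1:**
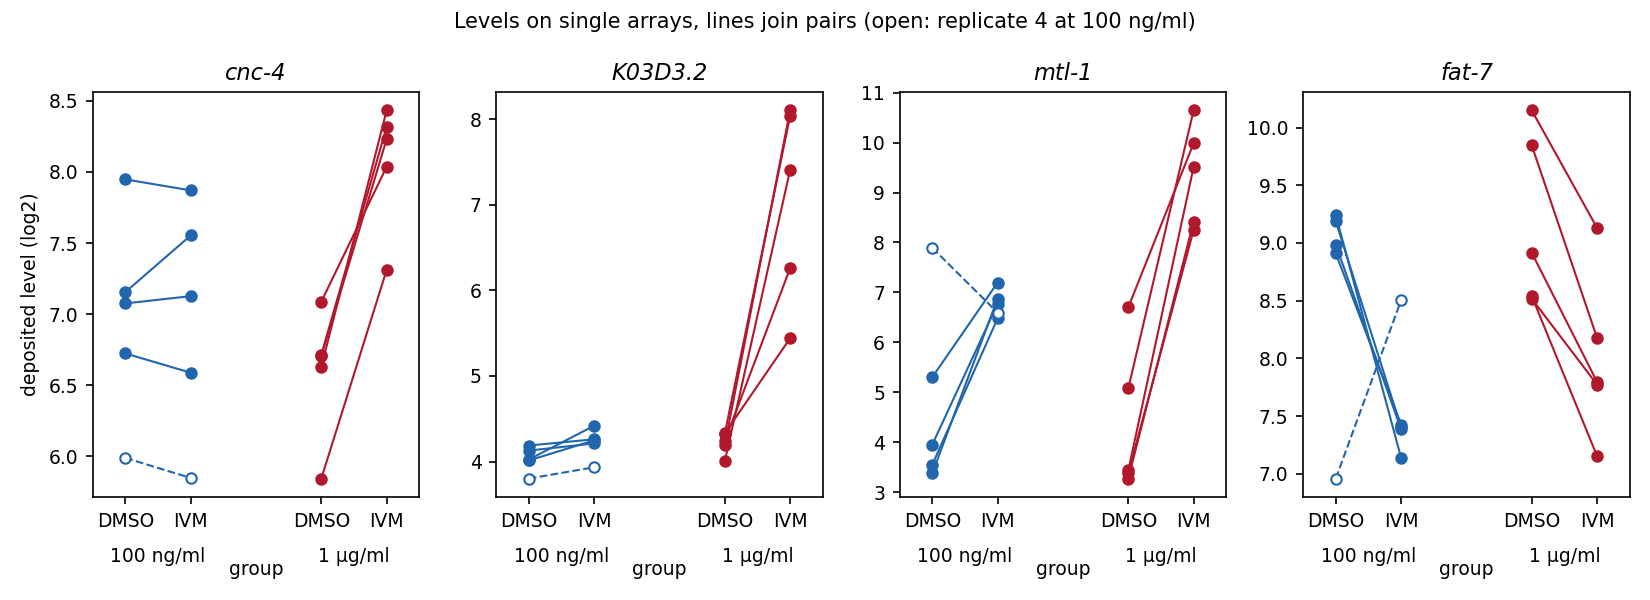
Deposited log2 levels of 4 genes on each array (y axis) by group (x axis), with lines joining the IVM and DMSO arrays of a pair; blue is 100 ng/ml, red is 1 µg/ml and the open dashed pair is replicate 4 at 100 ng/ml. *cnc-4* and *K03D3.2* rose in all 5 red pairs and by at most 0.40 in any blue pair, *mtl-1* rose in 4 blue and 5 red pairs, and the open pair crossed the others for *mtl-1* and *fat-7*.

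Other members of the epidermal peptide group did not share this pattern as a set. Of 15 caenacin and *nlp-27* cluster genes, 3 were called at 1 µg/ml, all higher (*cnc-4*, *nlp-28* and *nlp-29*; 366 of 16649 genes, 2.2%, were called higher there), and the median difference between doses was 0.01 over 20 arrays and -0.02 over 18, against -0.01 over all genes. *nlp-29* had a mean change of 0.96 at 1 µg/ml and 0.46 at 100 ng/ml, and *nlp-28* of 1.12 and 0.68, the latter called at both doses without replicate 4. A probeset shared by *cnc-11* and *R09B5.11*, which was not counted among the 15 because it measures both, had changes of 0.45, 0.76, 0.84, 0.87 and 0.42 at 1 µg/ml and of -0.11, 0.09, -0.01, -0.08 and -0.03 at 100 ng/ml. These did not overlap, and the difference was 0.70 (SE 0.12, adjusted p = 0.184) over 20 arrays and 0.68 (SE 0.13, adjusted p = 0.444) over 18.

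Among the probesets of smallest p after *cnc-4* were several with means under 0.5 at 100 ng/ml. *K03D3.2*, for which the annotation gives no name, changed by 3.40, 3.71, 1.11, 3.90 and 2.02 (log2) at 1 µg/ml and by 0.40, 0.07, 0.24, 0.13 and 0.08 at 100 ng/ml. All 5 pairs at the higher dose lay above all 5 at the lower, and replicates 3 and 5 rose less than the other 3. The difference was 2.65 (SE 0.43, adjusted p = 0.184) and 2.63 without replicate 4 (95% interval 1.62 to 3.65). The DMSO arrays of both experiments were alike for this gene, from 3.80 to 4.33, low on the scale of the table. *F55G1.7*, also without a gene name, changed by 1.86, 2.84, 1.05, 2.09 and 1.20 against 0.23, 0.17, 0.08, -0.05 and 0.13, again with no overlap, and its difference was 1.66 over 18 arrays (95% interval 1.03 to 2.29).

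*pals-32* belongs to the pals family, named for a shared sequence signature, several members of which are induced in *C. elegans* by intracellular pathogens. It changed by 1.94, 1.51, 1.37, 1.77 and 1.04 at 1 µg/ml and by 0.31, 0.41, 0.52, -0.81 and -0.12 at 100 ng/ml. The lowest pair at 1 µg/ml was above the highest at 100 ng/ml, and the difference was 1.47 (SE 0.24, adjusted p = 0.184) over 20 and 1.25 (SE 0.19, adjusted p = 0.14) over 18 arrays. The probeset of *F35E8.13* and *F35E8.10* had a difference of 1.22, *dach-1* of 1.09, *F41G4.8* of 1.01, *F45E1.4* of 0.88 and *F13E9.11* of 0.76 over 18 arrays, each with 5 pairs at 1 µg/ml above all those at 100 ng/ml. Over all probesets, such a separation upward was found for 109 (0.53%) with 5 pairs at each dose and for 179 (0.87%) with 4 at 100 ng/ml, and downward for 107 (0.52%) and 220 (1.07%). Genes in this and the other paragraphs were mostly named for a small p of the difference in these same pairs. That choice favours pairs without overlap, so the separation of named genes is no further evidence.

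To set apart genes that moved at 1 dose from those that moved alike, the 715 probesets called at 1 µg/ml were divided by intervals. A probeset was counted as moving at 1 µg/ml only where the 95% interval of the change at 100 ng/ml lay inside -0.5 to 0.5 (log2) and that of the difference between doses left out 0. It was counted as similar where the interval of the difference lay inside -1 to 1 and the mean at 100 ng/ml had the same sign and was at least 0.5 in size. By these limits 122 probesets (67 higher, 55 lower) were in the class of 1 µg/ml only, 196 (123 higher, 73 lower) were similar and 397 could not be placed over 18 arrays. The first class allows a change of less than 0.5 at 100 ng/ml, so it does not mean that nothing moved there. For example, the means at 1 µg/ml and 100 ng/ml were 0.49 and 0.17 for *lipl-3* and 0.61 and 0.29 for *acox-1.6*. With replicate 4 included, 225 were in the first class, 14 in the second and 476 in neither. All 14 similar probesets and 121 of those moving at 1 µg/ml only were shared between the 18-array and 20-array counts. A class for scaling with dose, which needs a called difference and the same sign at both doses, held no probeset of its own, since *cnc-4*, whose mean at 100 ng/ml was above 0 by only 0.02, was placed with those moving at 1 µg/ml only. This class needed an adjusted p for the difference, while the others used unadjusted intervals of it, so its being empty says little about scaling. By such intervals over 18 arrays, 263 of the 715 had a larger change at 1 µg/ml with 0 left out, members of other classes among them.

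**Figure D2:**
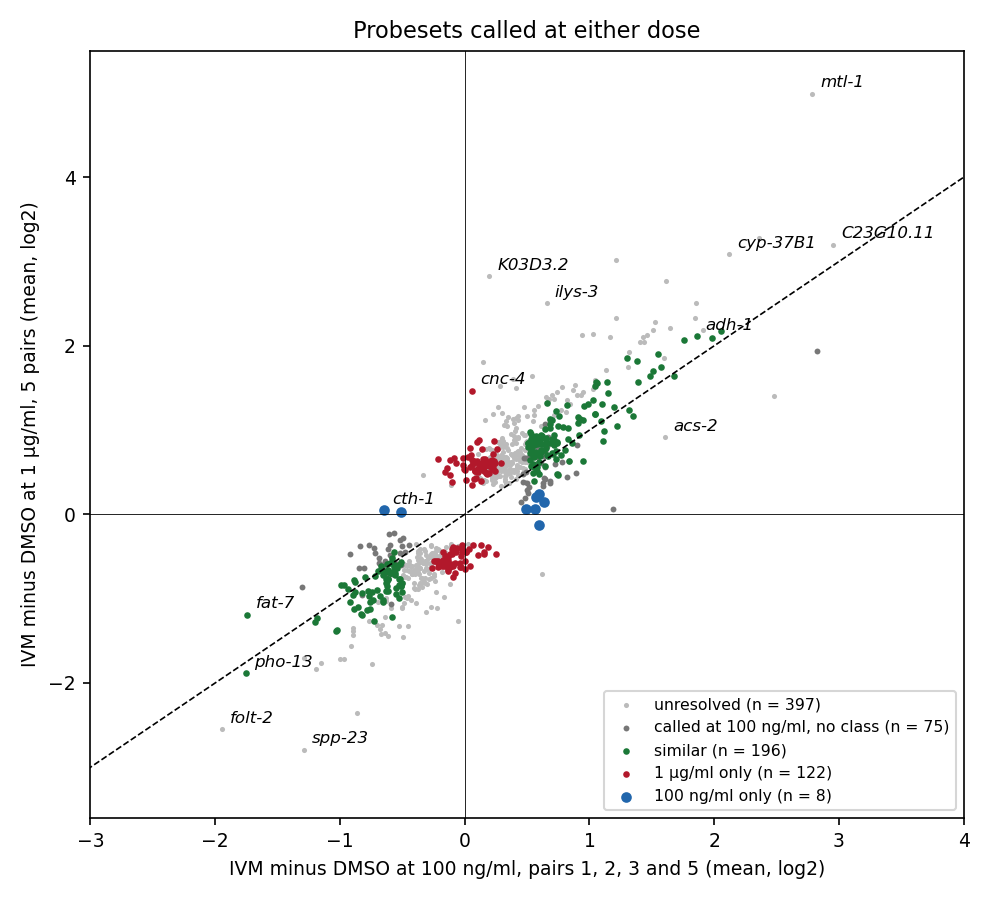
Mean change at 100 ng/ml over pairs 1, 2, 3 and 5 (x axis, log2) against mean change at 1 µg/ml over 5 pairs (y axis, log2) for every probeset called at either dose, coloured by class; the dashed line marks equal change. The 122 probesets of the class of 1 µg/ml only lie near the vertical axis, some with a smaller change of the same sign at 100 ng/ml. The 8 of the class of 100 ng/ml only lie near the horizontal axis. The 196 similar ones lie less than 1 (log2) above or below the dashed line, not all of them close to it.

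The genes that rose in the class of 1 µg/ml only had varied functions, and those described next are examples. *egl-21*, the carboxypeptidase that finishes neuropeptides, changed by 0.30, 0.66, 0.56, 0.73 and 0.66 at 1 µg/ml and by 0.14, 0.13, 0.21, -0.27 and -0.26 at 100 ng/ml, and the neuropeptide precursor gene *nlp-8* by 0.77, 0.77, 0.35, 0.49 and 0.57 against 0.03, 0.27, 0.25, -0.25 and -0.60. For both, the lowest pair at 1 µg/ml exceeded the highest at 100 ng/ml, which their choice from this class by the same values favours. The differences were 0.53 (95% interval 0.23 to 0.82) for *egl-21* and 0.60 (0.21 to 0.99) for *nlp-8* over 18 arrays, with adjusted p of 0.719 and 0.721. *fard-1*, a fatty acyl-CoA reductase of ether lipid synthesis, changed by 0.33, 0.47, 1.23, 0.61 and 0.60 against -0.06, 0.04, -0.07, 0.13 and -0.37, a difference of 0.76 (0.39 to 1.14). The lysosomal lipase gene *lipl-3* rose by 0.49 on average against 0.17, *acs-12*, an acyl-CoA synthetase, by 0.58 against 0.20, *epg-2*, an adaptor for autophagy of germ granules, by 0.64 against 0.08, and the acid phosphatase gene *pho-4* by 0.72 against 0.23; none of the means at 100 ng/ml passed the test.

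*pgp-14* encodes a P-glycoprotein, of a family of ATP-driven pumps that can export drugs. The probeset in this class changed by 0.54, 0.96, 0.31, 0.29 and 0.45 at 1 µg/ml and by -0.04, -0.05, -0.27, 0.19 and -0.25 at 100 ng/ml, with a difference of 0.66 (95% interval 0.34 to 0.98) over 18 arrays. Its controls were lower in the 1 µg/ml experiment by 1.01 (means 5.81 and 6.82), so the rise with IVM started from a lower level. Another probeset of the gene had means of 0.40 and -0.19, not called at either dose, and a difference of 0.59 (0.09 to 1.09). Of 28 P-glycoprotein and other ABC transporter genes, 1 was called higher and 2 lower at 1 µg/ml (2.2% and 1.39% of all genes) and none at 100 ng/ml (1.6% without replicate 4), and the median difference between doses was -0.04.

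The genes that fell in the class of 1 µg/ml only are likewise given by examples. *cpr-8*, a cathepsin B-like cysteine protease, changed by -0.31, -0.32, -0.63, -1.02 and -0.79 at 1 µg/ml and by -0.19, 0.16, -0.10, 0.15 and 0.29 at 100 ng/ml, and *bca-1*, a beta carbonic anhydrase, by -0.84, -0.36, -0.77, -0.62 and -0.87 against -0.05, -0.04, -0.30, 0.55 and 0.08. Neither gene had a pair at 1 µg/ml as high as any at 100 ng/ml. The differences were -0.65 (95% interval -1.02 to -0.29) and -0.61 (-0.91 to -0.32) over 18 arrays. The controls of both genes were higher in the 1 µg/ml experiment, by 0.85 for *cpr-8* and 0.68 for *bca-1*. *nrf-6*, a membrane protein needed for yolk transport, had a difference of -0.46 (-0.73 to -0.20), *laat-1*, a lysosomal exporter of lysine and arginine, of -0.54 (-0.87 to -0.22) and *Y82E9BR.14* of -0.60 (-0.85 to -0.34). *lon-1*, a secreted protein that limits body length, changed by -0.55, -0.89, -1.78, -1.08 and -1.17 against -0.53, -0.24, -0.28, 0.71 and -0.04, and moved out of the class without replicate 4, where its mean at 100 ng/ml was -0.27. Of 25 gut and lysosomal protease genes, 5 were called lower at 1 µg/ml (231 of 16649 genes, 1.39%) and 1 at 100 ng/ml (98, 0.589%), with 1 called higher there, and 3 were in the class of 1 µg/ml only (*cpr-8*, *cpr-5* and *asp-8*; 99 of all genes, 0.595%).

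Most probesets called at 1 µg/ml moved in the same direction at 100 ng/ml, with a smaller mean. Without replicate 4, the sign at 100 ng/ml matched that at 1 µg/ml for 687 of the 715 probesets called there, and the median change at 100 ng/ml was 56.7% of that at 1 µg/ml (quartiles 36.4% and 74.3%); with replicate 4 the median was 34.7%. Their choice at 1 µg/ml favours a larger change there. Chosen instead at 100 ng/ml, 313 probesets were called, 310 had the same sign at 1 µg/ml, 224 of these had a larger mean there, and the median was 81.8%. Of 230 probesets called at both doses, all 230 had the same sign, 200 had the larger mean at 1 µg/ml, 46 had an interval of the difference without 0 and 156 were in the similar class.

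*mtl-1*, a metallothionein that binds heavy metals and is a target of DAF-16, had the largest mean change at 1 µg/ml among the genes named here. Its changes were 4.87, 6.08, 3.29, 5.57 and 5.15 (log2) at 1 µg/ml and 2.93, 2.82, 1.89, -1.30 and 3.50 at 100 ng/ml. The ranges overlapped, since replicate 3 at 1 µg/ml was below replicate 5 at 100 ng/ml. The log2 level in IVM arrays ran from 6.48 to 7.20 at 100 ng/ml and from 8.25 to 10.64 at 1 µg/ml, without overlap, while the controls spread from 3.38 to 7.89 and from 3.27 to 6.70. The control of replicate 4 at 100 ng/ml, at 7.89, was above all 5 IVM arrays of its experiment. The difference between doses was 3.02 (SE 0.77, adjusted p = 0.601) over 20 arrays and 2.20 (95% interval 1.20 to 3.21, adjusted p = 0.455) over 18, where the mean at 100 ng/ml was 55.8% of that at 1 µg/ml on the log2 scale.

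*spp-23*, a saposin-like protein, fell at both doses and further at 1 µg/ml. It changed by -3.15, -2.3, -3.50, -3.03 and -1.97 at 1 µg/ml and by -1.67, -1.60, -1.20, 1.53 and -0.69 at 100 ng/ml. No pair overlapped, and the difference was -2.06 (SE 0.52, adjusted p = 0.571) over 20 and -1.50 (95% interval -2.14 to -0.86, adjusted p = 0.444) over 18 arrays. The controls differed by 1.07, with the higher level (9.86 against 8.79) in the 1 µg/ml experiment.

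A probeset of *dlhd-1* and *T23F4.1* was also among those of smallest p for a larger rise over 18 arrays. It changed by 2.03, 2.09, 2.07, 2.63 and 1.81 at 1 µg/ml and by 0.68, 1.43, 0.92, -1.47 and 0.74 at 100 ng/ml. The 4 pairs without replicate 4 all rose, by less than any pair at 1 µg/ml, and the difference was 1.18 (SE 0.19, 95% interval 0.78 to 1.59, adjusted p = 0.153). *far-7*, a fatty acid and retinol binding protein, changed by 1.80, 2.29, 1.88, 3.10 and 1.62 against 0.90, 0.95, 1.12, -1.23 and 1.13, a difference of 1.11 (0.58 to 1.65), again without overlap. *fat-3*, the delta-6 desaturase of polyunsaturated fatty acid synthesis, changed by 0.77, 0.92, 1.44, 1.18 and 0.81 against 0.60, 0.49, 0.42, -0.34 and 0.14, a difference of 0.61 (0.27 to 0.95), and its change at 100 ng/ml was not called (adjusted p = 0.105).

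The genes of largest change at 1 µg/ml ranged widely in the share reached at 100 ng/ml. Over the 20 probesets of largest change, the mean at 100 ng/ml without replicate 4 was a median of 67.7% of that at 1 µg/ml, from 6.96% for *K03D3.2* to 94.4% for *F09F7.6*, and under 50% for 6. *F57G8.7*, which has no gene name, changed by 3.47, 1.37, 2.27, 4.02 and 3.94 at 1 µg/ml and by 0.90, 1.35, 0.67, -0.67 and 1.95 at 100 ng/ml, a difference of 1.80 (95% interval 0.75 to 2.84, adjusted p = 0.721) over 18 arrays. *scl-2*, a gene of the SCP-like family of secreted proteins, changed by 3.29, 3.19, 3.24, 3.82 and 2.83 at 1 µg/ml and by 2.20, 2.87, 2.64, -2.47 and 1.73 at 100 ng/ml, so that without replicate 4 the mean at 100 ng/ml was 72.1% of that at 1 µg/ml. The cytochrome P450 gene *cyp-37B1* changed by 3.64, 3.86, 2.99, 3.41 and 1.54 against 2.13, 2.19, 2.76, -2.01 and 1.38 (68.5%), and the lysosomal lipase gene *lipl-1* by 2.59, 3.06, 2.11, 2.64 and 2.14 against 1.23, 1.76, 2.22, -2.51 and 2.20 (73.9%). For *scl-2*, *cyp-37B1* and *lipl-1* the pairs at the 2 doses overlapped. Differences of 0.91 (95% interval 0.41 to 1.42), 0.97 (0.09 to 1.85) and 0.66 (0.15 to 1.16) over 18 arrays had adjusted p of 0.719, 0.772 and 0.772. The *lipl-1* controls were lower by 1.82 in the 1 µg/ml experiment (means 5.76 and 7.59). *C23G10.11*, which has no gene name, changed by 1.61, 2.62, 3.96, 4.85 and 2.96 against 3.04, 2.69, 1.18, -2.01 and 4.88, and its difference of 0.25 had a 95% interval from -1.25 to 1.75, too wide to place it. The folate transporter gene *folt-2* was likewise unplaced, with a difference of -0.60 (-1.48 to 0.29).

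**Figure D3:**
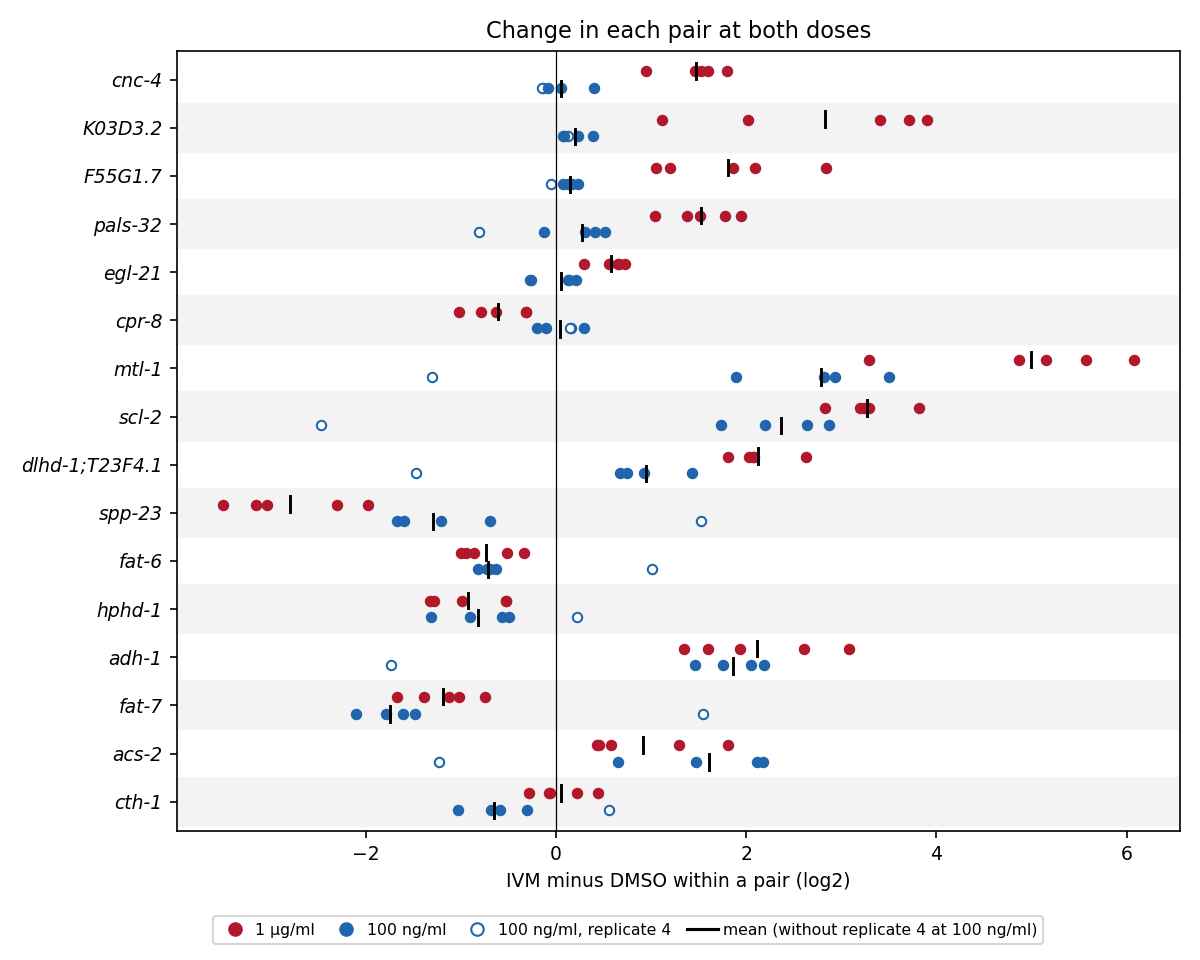
Change within each pair (x axis, IVM minus DMSO, log2) for 16 probesets, with red points for 1 µg/ml, blue for 100 ng/ml, open blue for replicate 4 at 100 ng/ml and black bars for means without that replicate. The upper rows, from *cnc-4* to *cpr-8*, have blue means near 0, with single blue points of *pals-32* further off. The middle rows from *mtl-1* to *spp-23* have red means further from 0 than blue means, though single points of *mtl-1* and *scl-2* overlap. *fat-7* and the *acs-2* probeset shown have blue means further from 0.

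*ilys-3*, an invertebrate-type lysozyme that breaks bacterial cell walls, differed between pairs at 100 ng/ml. It changed by 2.59, 3.40, 2.20, 2.54 and 1.80 at 1 µg/ml and by 1.17, 1.21, 1.59, -1.50 and -1.34 at 100 ng/ml. Replicates 4 and 5 both fell, while the other 3 rose. The difference was 1.85 (95% interval 0.76 to 2.94, adjusted p = 0.721) over 18 arrays. Pairs of *gst-4* and *gst-10*, which encode glutathione S-transferases, were likewise split, with replicates 1 to 3 down and replicates 4 and 5 at or above 0 at 100 ng/ml, against a fall in all 5 pairs at 1 µg/ml; their differences were -0.74 (-1.37 to -0.12) and -0.95 (-1.74 to -0.17).

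Several genes of fatty acid synthesis and desaturation fell to about the same extent at both doses. *fat-6*, a stearoyl-CoA desaturase, changed by -0.95, -0.34, -0.52, -1.0 and -0.86 at 1 µg/ml and by -0.72, -0.82, -0.63, 1.01 and -0.69 at 100 ng/ml. Without replicate 4 the pairs overlapped, and the difference was -0.02 (95% interval -0.34 to 0.31). The fatty acid elongase gene *elo-2* changed by -0.91, -1.08, -1.03, -1.01 and -0.55 against -0.75, -0.59, -0.58, 0.53 and -1.18, and *acly-1*, the ATP-citrate lyase that supplies acetyl-CoA for synthesis, by -0.61, -0.96, -0.83, -0.65 and -0.27 against -0.31, -0.75, -0.86, 0.13 and -0.54. Their differences, -0.14 (-0.48 to 0.20) and -0.05 (-0.39 to 0.30), leave out a further fall of 0.5 at 1 µg/ml. Another probeset of *acly-1*, the one that stands for the gene in the list counts, had means of -0.55 and -0.48 and was not called at 1 µg/ml. Of 22 genes that make, desaturate or lengthen fatty acids, 6 were called lower and 2 higher at 1 µg/ml (231 lower of 16649 genes, 1.39%), and 6 lower and none higher at 100 ng/ml without replicate 4 (98 genes, 0.589%). Of the 22, 6 were in the similar class (*elo-2*, *elo-5*, *elo-6*, *fat-5*, *fat-6* and *fat-7*; 163 of all genes, 0.979%), and 14 were not called at 1 µg/ml. The list's median difference was -0.02 over 18 arrays and -0.09 over 20. The 2 called higher were *fat-3* and *fat-4*.

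*fat-7*, the other stearoyl-CoA desaturase gene regulated by fasting, had the larger mean fall at 100 ng/ml. It changed by -1.67, -1.02, -1.39, -0.74 and -1.12 at 1 µg/ml and by -1.79, -2.10, -1.48, 1.54 and -1.60 at 100 ng/ml. Without replicate 4, its mean at 100 ng/ml was 146.8% of that at 1 µg/ml, the ranges overlapped between -1.48 and -1.67, and the difference was 0.56 (95% interval 0.15 to 0.96, adjusted p = 0.768). It counted as similar by the limits of that class, although this interval left out 0. Only 2 of the 715 probesets called at 1 µg/ml, those of *fat-7* and *T22F3.11*, had an interval without 0 on the side of a smaller change at 1 µg/ml, against 263 on the other side. *acs-2*, an acyl-CoA synthetase of mitochondrial beta-oxidation, changed by 0.58, 0.44, 1.29, 1.81 and 0.46 against 2.11, 2.18, 0.65, -1.23 and 1.48. Its mean at 100 ng/ml was the larger (1.60 against 0.92) and the interval of the difference, -1.43 to 0.05, held 0. Another probeset of *acs-2* had means of 1.35 at 100 ng/ml and 1.17 at 1 µg/ml and was in the similar class. With replicate 4 included, the differences were -0.10 for *fat-7* and -0.12 for the first *acs-2* probeset.

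The propionate shunt breaks propionate down when the vitamin B12 pathway is short, and 2 of its genes were also in the similar class. *acdh-1*, its first enzyme, changed by -0.21, -0.62, -1.47, -1.0 and -0.88 at 1 µg/ml and by -1.24, -0.77, -0.48, 0.39 and -1.47 at 100 ng/ml, and *hphd-1*, a dehydrogenase of the same pathway, by -0.53, -0.98, -1.28, -1.32 and -0.52 against -0.91, -0.57, -0.49, 0.22 and -1.31. Pairs at 100 ng/ml other than replicate 4 lay within or next to the range at 1 µg/ml. Differences over 18 arrays were 0.16 (95% interval -0.39 to 0.70) and -0.11 (-0.57 to 0.36). *nhr-68*, a nuclear receptor that activates the shunt genes, had a difference of 0.11 (-0.33 to 0.55), and *sams-1*, the S-adenosylmethionine synthetase, of 0.05 (-0.39 to 0.48). Of 11 genes of propionate breakdown, 4 were called lower at 1 µg/ml (1.39% of all genes) and 3 at 100 ng/ml without replicate 4 (0.589%), and none had an unadjusted p under 0.05 for the difference (1067 of 16649 genes, 6.41%).

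Several genes that rose were similar as well. *adh-1*, an alcohol dehydrogenase gene also known as *sodh-1*, changed by 1.94, 1.35, 2.60, 3.09 and 1.60 at 1 µg/ml and by 1.76, 2.05, 2.19, -1.73 and 1.47 at 100 ng/ml, a difference of 0.25 (95% interval -0.42 to 0.91) over 18 arrays. *pdhk-2*, a pyruvate dehydrogenase kinase, which holds back the use of sugar for acetyl-CoA, changed by 0.50, 0.49, 0.85, 0.73 and 0.54 against 0.67, 0.72, 0.41, -0.28 and 0.58, a difference of 0.03 (-0.24 to 0.29). In both genes the 4 pairs at 100 ng/ml lay within or next to the range at 1 µg/ml. Of those that fell, the acid phosphatase gene *pho-13* had means of -1.88 and -1.75 (difference -0.13, -0.68 to 0.41) and *trap-2*, a subunit of the complex at the translocon of the endoplasmic reticulum, of -0.58 and -0.60 (difference 0.02, -0.22 to 0.27). *icl-1*, the enzyme of the glyoxylate cycle, with means of 1.7 and 1.51, and *lgg-2*, an LC3-type autophagy protein, with 0.89 and 0.83, were in the same class. With replicate 4 included, the similar class kept *acdh-1*, *hphd-1*, *nhr-68*, *sams-1*, *elo-2* and *nuc-1*, a lysosomal DNase, among its 14 probesets.

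Targets of DAF-16 were found among similar genes and among those with a larger change at 1 µg/ml. Of 17 measured genes that DAF-16 is known to raise, 7 were called higher and 1 lower at 1 µg/ml (2.2% and 1.39% of all genes) and 6 higher and 1 lower at 100 ng/ml without replicate 4 (1.01% and 0.589%), and 5 were similar (0.979% of all genes), among them *fat-5*, counted above as well. *lea-1*, a protein of the late embryogenesis abundant family that protects against drying, changed by 1.58, 2.27, 2.11, 1.58 and 1.72 against 1.52, 1.28, 1.54, -1.28 and 0.87 and counted as similar, although the interval of its difference, 0.55 (0.15 to 0.96), left out 0. Another probeset of *lea-1* had means of 2.10 and 1.43 and could not be placed. *dod-3* changed by 2.39, 2.83, 1.37, 3.10 and 1.98 against 1.51, 1.27, 0.71, -1.22 and 1.37, a difference of 1.12 (0.47 to 1.77). The median difference over the 17 genes was 0.19 over 18 arrays and 0.24 over 20. A separate list of 12 genes downstream of *daf-16*, which holds *dod-3*, had 2 called higher and 2 lower at 1 µg/ml (2.2% and 1.39% of all genes). Its median difference was -0.26 over 18 arrays and -0.07 over 20. This list was not divided by whether DAF-16 raises or lowers a gene, so its counts and median give no direction of DAF-16 activity. Means at 1 µg/ml and 100 ng/ml without replicate 4 had opposite signs for *dod-24* (-0.71 and 0.62). Those of *dod-19* (-0.99 and -0.48) were both below 0 and those of *dod-22* (0.64 and 0.95) both above it.

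A small set was in the class of 100 ng/ml only, by the same limits with the doses exchanged. It held 8 probesets without replicate 4 and none with it. *cth-1*, a cystathionine gamma-lyase of cysteine synthesis, changed by -0.59, -1.03, -0.68, 0.56 and -0.31 at 100 ng/ml and by -0.28, 0.44, -0.06, -0.07 and 0.23 at 1 µg/ml. The 4 pairs were all below those at 1 µg/ml, and the difference was 0.70 (95% interval 0.33 to 1.08, adjusted p = 0.719). *fbxa-115*, an F-box gene, changed by -0.37, -0.49, -0.45, 0.34 and -0.74 against 0.12, 0.19, -0.25, 0.22 and -0.15, also without overlap. The other 6 probesets, those of *cpr-3*, *R08A2.1*, *dos-3*, *C17H12.8*, *F55G1.15* and one shared by *VB0393L.2*, *F31E3.6* and *B0393.8*, were higher at 100 ng/ml. *cpr-3*, another cathepsin B-like protease, changed by 0.29, 0.74, 0.72, -0.53 and 0.50 against -0.05, -0.09, 0.39, 0.40 and -0.36, while another probeset of the gene had means of 0.51 and 0.25, called at 100 ng/ml alone, and probes of both probesets can also match related genes. In all 8, replicate 4 at 100 ng/ml went the other way or stayed near 0.

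Over all 16649 genes, 597 (3.59%) were called at 1 µg/ml and 266 (1.6%) at 100 ng/ml without replicate 4, so that a list with more calls at 1 µg/ml does not stand apart by that alone. Of 25 autophagy genes, 6 were called higher at 1 µg/ml (366 of all 16649 genes, 2.2%) and 1 at 100 ng/ml without replicate 4 (168, 1.01%). *atg-16.2* changed by 0.79, 1.54, 0.94, 1.04 and 0.49 against 0.61, 0.49, 0.19, -0.75 and 0.18, a difference of 0.59 (95% interval 0.18 to 1.00), and *sqst-1*, the autophagy receptor, had means of 0.94 and 0.48, a difference of 0.46 (0.04 to 0.88). The list's median difference was 0.06 over 18 arrays and 0.14 over 20. Of 40 transthyretin-related genes, 8 were called higher at 1 µg/ml and 5 at 100 ng/ml, 6 had an unadjusted p under 0.05 toward a higher change at 1 µg/ml (474 of all genes, 2.85%) and none toward a lower one (593, 3.56%), and the median difference was 0.02; *ttr-44*, with means of 1.45 and 0.74, and *ttr-29*, with 1.18 and 0.55, were among them.

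Of 64 genes of fatty acid activation and oxidation, 8 were called higher and 8 lower at 1 µg/ml (2.2% and 1.39% of all genes) and 2 and 3 at 100 ng/ml without replicate 4 (1.01% and 0.589%). *acox-3*, an acyl-CoA oxidase, changed by 0.87, 1.00, 2.11, 1.52 and 1.54 against 1.06, 0.38, 0.69, -0.78 and 0.68, a difference of 0.71 (95% interval 0.21 to 1.20). Among 11 lipase genes, 3 were called higher at 1 µg/ml (2.2% of all genes) and 2 at 100 ng/ml (1.01%), and the median difference was 0.02. Of 70 cytochrome P450 genes, 7 were called higher and 1 lower at 1 µg/ml (2.2% and 1.39% of all genes) and 2 and 1 at 100 ng/ml (1.01% and 0.589%), and the median difference was 0.00. Of 43 glutathione S-transferase genes, 1 was called higher and 4 lower at 1 µg/ml (2.2% and 1.39% of all genes) and 1 each way at 100 ng/ml (1.01% and 0.589%). The median difference of these genes was -0.12, with 4 members under an unadjusted p of 0.05, all toward a lower change at 1 µg/ml (3.56% of all genes).

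**Figure D4:**
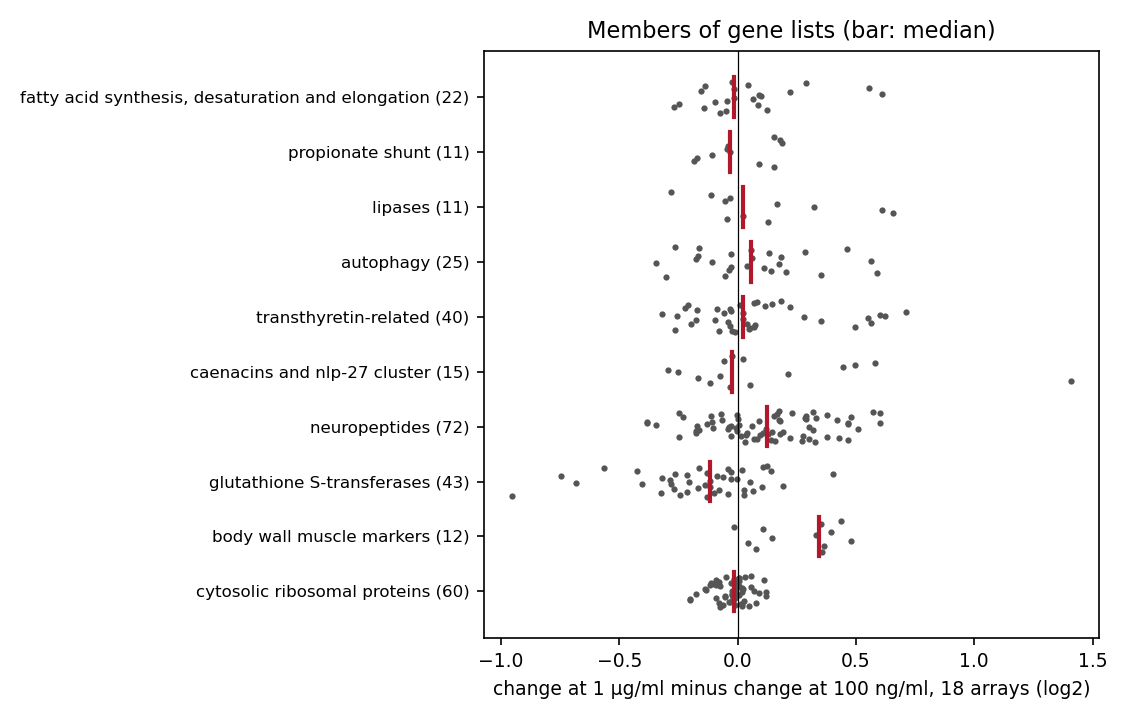
Difference between the changes at 1 µg/ml and 100 ng/ml over 18 arrays (x axis, log2) for each measured gene (points) of 10 gene lists (y axis, number of genes in brackets), with red bars for list medians. The medians lie between -0.12 for glutathione S-transferases and 0.34 for body wall muscle markers, and *cnc-4* is the point at 1.41.

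No body wall muscle or neuropeptide gene was called for the difference between doses, and their median differences were above 0. Over 12 body wall muscle genes the median change was 0.17 at 1 µg/ml and -0.11 at 100 ng/ml without replicate 4, the median difference 0.34 (0.26 over 20 arrays, -0.01 over all genes), and 5 of 12 had an unadjusted p under 0.05 for the difference, all upward (2.85% of all genes upward). None of the 12 was called at either dose (3.59% of all genes at 1 µg/ml and 1.6% at 100 ng/ml without replicate 4). *lev-11*, tropomyosin, changed by 0.21, 0.22, 0.60, 0.32 and 0.24 against 0.09, 0.04, -0.14, 0.18 and -0.19, with no overlap, from control means of 10.81 and 11.43. *myo-2*, a pharyngeal myosin, had a difference of 0.40 (95% interval 0.15 to 0.64), from control means of 7.02 and 7.69, and 14 pharynx genes a median of 0.18. Over 72 neuropeptide genes the median change was 0.24 at 1 µg/ml and 0.10 at 100 ng/ml, 3 were called higher at 1 µg/ml (2.2% of all genes) and 1 lower at 100 ng/ml (0.589%), 9 had an unadjusted p under 0.05 toward a higher change at 1 µg/ml (2.85%) and 3 toward a lower one (3.56%), and the median difference was 0.12. The 12 muscle genes started lower in the 1 µg/ml experiment, by a median of 0.64 as given above, and the part of these control levels in the differences was not tested.

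Several lists held no calls. No member of the lists of 60 cytosolic ribosomal proteins, 33 proteasome subunits, 66 sperm, 20 oocyte and eggshell, 16 germline, 12 hypodermis or 16 moulting genes was called at either dose, and median differences over 18 arrays were -0.02, -0.07, -0.09, -0.14, -0.04, -0.01 and 0.07. Over all genes 3.59% were called at 1 µg/ml and 1.6% at 100 ng/ml without replicate 4. At these shares lists of this size hold few calls or none, so the lack of calls does not set them apart. Of 25 heat shock and chaperone genes 1 was called, lower at 1 µg/ml (*hsp-17*, mean -0.79; 1.39% of all genes), and the median difference was -0.04. A probeset shared by *hsp-16.49* and *hsp-16.48*, not counted among the 25 because it measures both, was also called lower at 1 µg/ml, with a mean of -1.31 (limma adjusted p = 0.0389). Its pairs there ran from -0.35 to -2.31 and those at 100 ng/ml from -2.86 to 1.03, and the difference over 18 arrays was -0.61 (95% interval -1.94 to 0.72). Of 5 measured genes of glutamate-gated chloride channels, the targets of IVM, *glc-1* was called higher at 1 µg/ml (2.2% of all genes). It changed there by 0.54, 1.33, 0.70, 0.98 and 0.37, against 0.39, 0.23, 0.46, -0.05 and 0.28 at 100 ng/ml. The pairs overlapped, and the difference was 0.44 (95% interval 0.06 to 0.82, adjusted p = 0.772). DA1316 carries *glc-1(pk54)*, so these values are of the transcript of a mutant gene.

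The size of the whole response was compared pair by pair. For each pair, changes were regressed through 0 on the mean change at 1 µg/ml over the called probesets, and for the pairs at 1 µg/ml both the mean and the calls came from the other 4 pairs. A slope of 1 is a response as large as the mean at 1 µg/ml. At 1 µg/ml the slopes were 0.84, 0.99, 0.79, 1.27 and 0.59 for replicates 1 to 5, a mean of 0.90 ± 0.25 (SD, n = 5 pairs). At 100 ng/ml they were 0.66, 0.65, 0.56, -0.56 and 0.52, a mean of 0.60 ± 0.07 (SD, n = 4 pairs) without replicate 4. Replicate 5 at 1 µg/ml was within the range of the 4 pairs at 100 ng/ml, and the other 4 pairs at 1 µg/ml were above it. Over the 313 probesets called at 100 ng/ml without replicate 4, the slopes of the 5 pairs at 1 µg/ml on the mean change at 100 ng/ml were 1.11, 1.34, 1.19, 1.52 and 0.88.

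**Figure D5:**
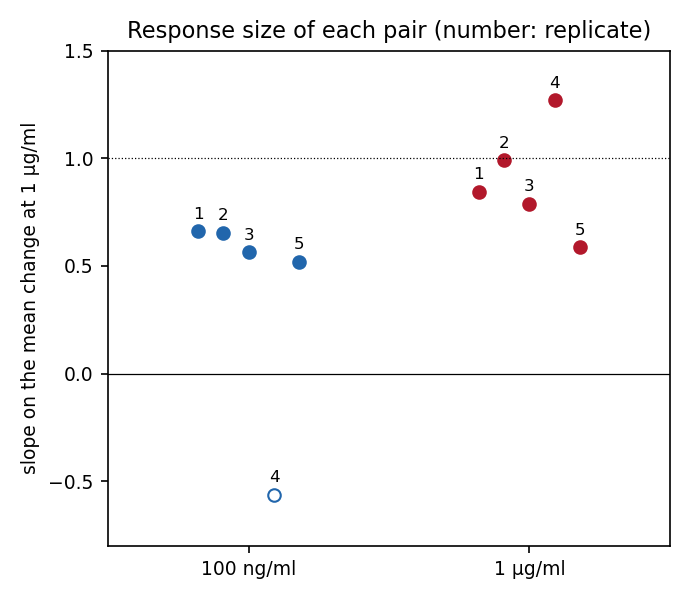
Slope of each pair's changes on the mean change at 1 µg/ml (y axis; 1, dotted, is a response of the same size) at both doses (x axis), with the replicate number beside each point. The 4 filled pairs at 100 ng/ml lie between 0.52 and 0.66, replicate 4 (open) at -0.56 and the pairs at 1 µg/ml between 0.59 and 1.27.

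Replicate 4 at 100 ng/ml ran opposite to every other pair along this response. It went down where the others went up for *scl-2* (-2.47), *lipl-1* (-2.51), *cyp-37B1* (-2.01) and *adh-1* (-1.73), and up where they went down for *fat-7* (1.54), *spp-23* (1.53), *folt-2* (1.39) and *fat-6* (1.01). For *fat-7* its DMSO array, at 6.96, was below all 4 other controls (8.91 to 9.24), and its IVM array, at 8.50, above all 4 other IVM arrays (7.14 to 7.43). The label of both arrays was kept as deposited. The differences between doses that include this pair are therefore larger for *mtl-1* (3.02 against 2.20), *scl-2* (1.88 against 0.91) and *cyp-37B1* (1.80 against 0.97), which moved at both doses. They are nearly the same for *cnc-4* (1.45 against 1.41) and *K03D3.2* (2.65 against 2.63). Without this pair the means of these genes at 100 ng/ml were small, 0.06 for *cnc-4* and 0.20 for *K03D3.2*. Of these, *cnc-4* was in the class of 1 µg/ml only and *K03D3.2* could not be placed.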

How the data were processed

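Whole-worm RNA of 20 samples was measured on Affymetrix *C. elegans* GeneChips. The authors deposited log2 probeset values, and their processing notes name RMA and limma without versions; no detection calls or depths were used here, and 5 arrays per group limit precision. Of 20575 probesets, 20563 were tested, unfiltered, after 12 spike-in controls were set aside; the platform annotation gives 1 gene for 19181, several for 803 and none for 579, and one probeset per gene (the highest mean) stood for it in lists. limma 3.58.1 (R 4.3.3) was fitted with lmFit and eBayes on 20 arrays, or 18 without both arrays of replicate 4 at 100 ng/ml, with 10 (or 9) pair blocks and a drug term per dose; adjusted p values are Benjamini-Hochberg values over all 20563. Classes and per-dose calls used blocked fits. All intervals are 95% intervals from limma, not adjusted for the number of genes.

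The methods split each worm suspension between drug and control plates, which gives the pairing; same-numbered arrays correlated after group means were removed (r 0.499 to 0.884 at 1 µg/ml, 0.553 to 0.883 at 100 ng/ml), but replicate 3 at 1 µg/ml (0.673 with another array against 0.499) and replicate 5 at 100 ng/ml (0.815 against 0.729) correlated better with an array of another number. Named genes are those of smallest p in the contrast (12 per direction), up to 8 per direction of each class, 3 per list and 12 that the study names, with a few list members, *F57G8.7* and the shared *hsp-16* probeset chosen after their values were seen. The members, 48 gene lists and classes were chosen with earlier results of these data known, and the counts by dose of choice and slopes over 313 probesets were added later. Fits were tested on simulated data. Alternatives were other blocks, scalings, filters, weights and thresholds, and each pair left out. Sequences and promoters were not analysed here.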

Additional observations from a re-analysis of the deposited data

Results flagged for a closer look

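In 13 of 108 sets of 5 pairs (the changes at each dose of the 53 probesets followed here, and the response sizes), 1 pair stood apart from the other 4 by Dixon's test at 95%. All 13 were replicate 4 at 100 ng/ml. Chance flags about 1 set in 20. These sets share the same arrays and are not independent, so their number cannot be set against that rate. The values of this pair were -2.47 for *scl-2*, -2.01 for *cyp-37B1*, -1.47 for the probeset of *dlhd-1* and *T23F4.1*, -1.28 for *lea-1*, -1.23 for *far-7*, -2.51 for *lipl-1* and -1.73 for *adh-1*, which rose in the other pairs. They were 1.39 for *folt-2*, 1.01 for *fat-6*, 0.39 for *trap-2* and 1.54 for *fat-7*, which fell in the other pairs, and 0.44 for *nrf-6*, which was near 0 in them. The response size of the pair was -0.56.

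*cnc-4* was flagged because its change differed between doses by the test of the difference itself, by 1.45 on the log2 scale over 20 arrays (limma, higher in 5 of 5 pairs at 1 µg/ml and in 2 of 5 at 100 ng/ml).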

How the results depend on the processing

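For the difference between doses, counts of called probesets moved with most settings. Over 20 arrays the number higher was 1; it was 0 without the replicate block, 4 with the replicate as a random block (and 1 lower), 0 with a block across experiments and 3 with array weights, and 0 to 4 with 1 pair left out. Over 18 arrays it was 0 without the replicate block, 0 with a block across experiments, 2 after quantile normalization again, 3 with trend and robust, 0 with array weights and 0 to 3 with 1 pair left out. With the random block *cnc-4* was not among those called (adjusted p = 0.0775 over 20 arrays and 0.0581 over 18), and the 1 called over 18 arrays was *F45E1.4*. The cause was not tested. The number lower was 0 in all but the random block over 20 arrays.

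At 1 µg/ml, 45 were higher and 19 lower without the replicate block, and with 1 pair left out 145 to 510 were higher and 60 to 267 lower, the lowest counts without replicate 1 and the next without replicate 4 (151 and 67). At 100 ng/ml the counts were 0 except without replicate 4 (201 and 112). The similar class held 196 without replicate 4 and 1 with an interval of ±0.6 over 20 arrays, and 90 with that interval over 18; the class of 1 µg/ml only held 122 and that of 100 ng/ml only 8 without replicate 4.

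The difference changed sign for *fat-7* over 20 arrays (0.00978 after quantile normalization again and 0.0891 with array weights; -0.36 to 0.56 with 1 pair left out, above 0 without replicate 4 at 100 ng/ml and, at 0.02, without replicate 1 at 1 µg/ml), for *acs-2* over 20 arrays (0.15 and 0.16 without replicates 1 and 2 at 100 ng/ml, in a range of -0.69 to 0.16 with 1 pair left out) and for *C23G10.11* over 18 (-0.16 with a block across experiments or without replicate 4 at 1 µg/ml, -0.34 without replicate 3 at 100 ng/ml, in a range of -0.34 to 0.89). The arrays carry no depth. A difference of 0.5 was called in 26% of simulated cases over 18 arrays, a share that may be too high for the arrays themselves, as given above.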
